A study of Mus musculus with 12 samples.

Results

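The cells described here are mammary fibroblasts of female C57BL/6J mice with high Gdf10, called Gdf10 F3 fibroblasts after their label markers Gdf10, F3, Cxcl12 and Tmem176b. They were selected on measured transcript counts, so the genes of the selection rule are no result. A cell entered with at least 500 genes, at least 1000 unique molecular identifiers (UMIs, 1 count per captured transcript) and at most 5% mitochondrial UMIs. It counted as a fibroblast with at least 20 UMIs of the collagen genes Col1a1, Col1a2 and Col3a1 together and none of Ptprc, Pecam1 and Epcam, markers of immune, endothelial and epithelial cells. It was kept with at least 3 UMIs of Gdf10, fewer than 10 of Fabp4, fewer than 20 of Pi16 and none of Tnc. This gave 2911 cells, 8.64% of the 33709 fibroblasts among 46257 cells that passed the filters, with 136 to 374 cells in each of the 12 libraries.

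Each library was 1 treatment group of mice 43 weeks old, made from the 4th mammary glands with the lymph nodes removed, and the number of animals behind a library was not given in the sources used here. Ovarian failure was induced with 4-vinylcyclohexene diepoxide (VCD, 160 mg/kg per day for 15 days), which destroys small ovarian follicles, in every group but Intact. Of the VCD groups, 9 crossed 3 hormone arms with 3 arms of polybrominated diphenyl ethers (PBDE, flame retardants). The hormone arms were no hormone, 17β-estradiol (E2, 1 µg per animal per day for 1 week) and E2 with progesterone (P4, 1 mg per animal per day). The low PBDE arm received 0.05, 0.0028 and 0.0063 mg/kg per day of PBDE-47, PBDE-100 and PBDE-153 for 20 weeks, and the high arm 1, 0.056 and 0.126 mg/kg per day for 1 week, so that dose and duration cannot be told apart. The groups are named VCD_Vehicle, VCD_E2 and VCD_E2_P4 without PBDE, VCD_Low_PBDE, VCD_Low_E2 and VCD_Low_E2_P4 at the low dose, and VCD_High_PBDE, VCD_High_PBDE_E2 and VCD_High_PBDE_E2_P4 at the high dose. Outside this layout stood Intact, VCD_E2_ICI (E2 and 1 injection of 5 mg of ICI, an estrogen receptor degrader also called fulvestrant) and VCD_Vehicle_NormEnv, vehicle animals whose cages may have exposed them to environmental PBDE. E2 reached every cell of the animal, and direct effects on fibroblasts and effects through other cells cannot be told apart.

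Gdf10 encodes a secreted protein of the transforming growth factor β and bone morphogenetic protein family. F3 encodes tissue factor, also called CD142, the cell surface receptor that starts blood coagulation, and F3 with high Gdf10 marks a stromal cell of fat tissue known to restrain the formation of adipocytes in culture. Cxcl12 is a chemokine that holds leukocytes and progenitor cells in their niche, and Tmem176b is an intracellular membrane channel protein. Estradiol acts on target cells mainly through estrogen receptor α, the product of Esr1, and type I interferons act through a complex of transcription factors that binds the interferon-stimulated response element in the promoters of their target genes.

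Depth differed between libraries. The members of a library summed to between 1781544 and 5526253 UMIs, with a median of 12041 to 18918 UMIs per cell. Levels are given in CPM, the counts of a gene scaled to the same total of member UMIs in each library, a scale on which 1 gene can be compared between libraries but not 1 gene with another. Pairs of libraries shared 0 to 15 cell barcodes, at most 0.393% of the smaller library, and 1 member barcode was shared. Markers of other cell types were low. The 12 immune markers summed to 25.3 to 91.6 CPM with Ptprc at 0 by rule, the 10 endothelial markers to 21.8 to 50.1 with Pecam1 at 0 by rule, the 10 epithelial markers to 7.09 to 26.4 with Epcam at 0 by rule, and the 8 adipocyte markers to 1.63 to 12.8 with Lep at 0. The 10 pericyte and smooth muscle markers summed to 60.8 to 94.4 CPM, the 8 Schwann cell markers to 93.8 to 139 with Sox10 at 0, and the 6 muscle markers to 2.19 to 29.0. The 12 pan-fibroblast genes summed to 40392 to 59744 CPM. The 5 red cell markers ranged from 8.55 to 1822 CPM and are given again beside the hormone results.

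The label held in these cells. F3 was detected in 78.3% of members, between 68.2% and 87.1% by library, Cxcl12 in 97.3% and Tmem176b in 62.9%. In 6562 immune cells, which should lack F3 and Gdf10, the shares were 2.70% for F3, 1.40% for Gdf10 and 12.5% for Cxcl12. Tmem176b is also known from macrophages and dendritic cells, and it was detected in 48.3% of immune cells. In Fabp4-high fibroblasts (at least 10 Fabp4 UMIs) F3 was detected in 45.2% and Cxcl12 in 91.8% of cells, so that detection of Cxcl12 was not particular to members. At an equal depth of 5000 UMIs per cell, F3 was detected in 64.3% of members, 24.7% of Fabp4-high fibroblasts and 1.55% of immune cells. Tmem176b was then detected in 51.2% of members and 53.5% of immune cells. Pdgfra, a receptor of stromal cells, was detected in 94.7% of members, whereas the adipocyte genes Adipoq and Plin1 were detected in 1 and 5 cells.

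The levels of other genes were set beside the Gdf10 count of a cell, as a description of the value that chose the members. Among fibroblasts that met every other limit, 8335 had no Gdf10 UMI, 1582 had 1, 842 had 2, 518 had 3, 673 had 4 to 5, 853 had 6 to 10 and 867 had 11 or more. Along these classes F3 was at 96.4, 129, 216, 246, 377, 475 and 667 CPM, so that cells with 2 UMIs, just outside the rule, and cells with 3, just inside it, were close. Cxcl12 went from 359 to 1334 CPM, Tmem176b from 79.1 to 301, Clec11a, which encodes a growth factor for skeletal and blood stem cells, from 29.7 to 194, and Fmo2, a flavin monooxygenase, from 40.3 to 291. Dpp4, a marker of the Pi16 fibroblasts that give rise to other stromal cells, went the other way from 162 to 52.3 CPM, and Postn, a matrix protein, from 1161 to 150.

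**Figure D1:**
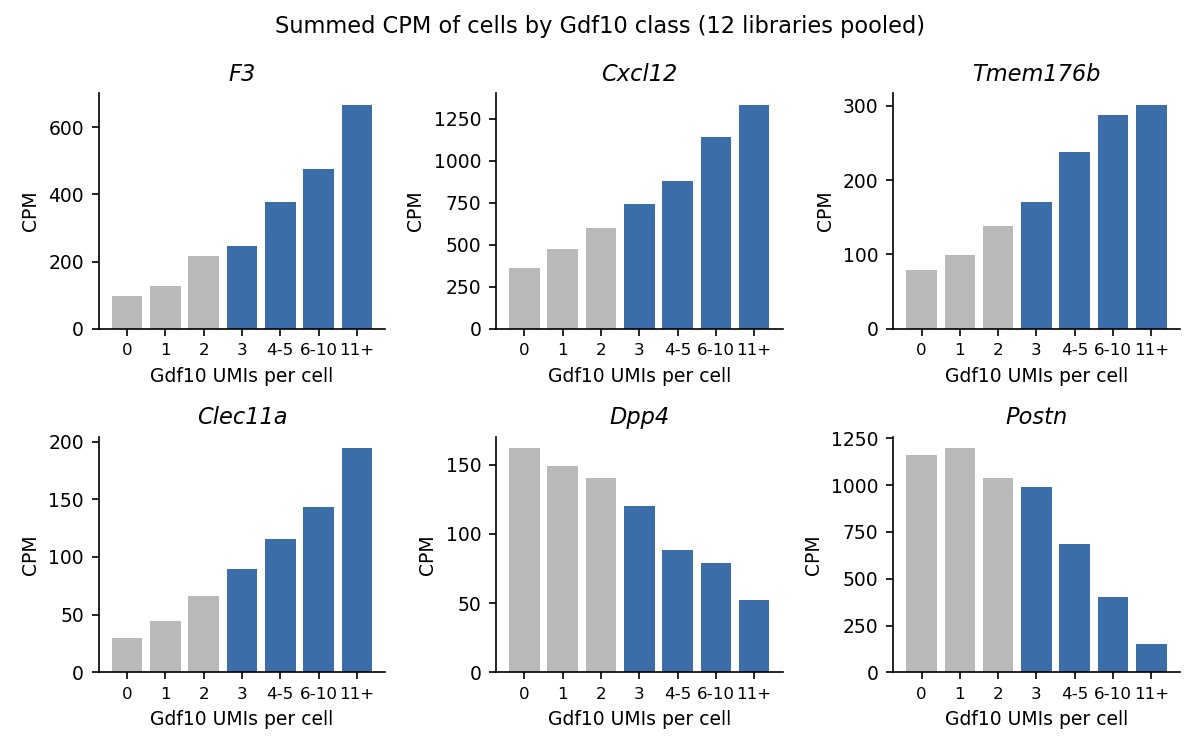
Bars give CPM of 6 genes in fibroblasts pooled over the 12 libraries that met every limit other than that on Gdf10, by the Gdf10 UMIs of the cell (grey, below the limit; blue, members). F3 was at 96.4 CPM in cells without Gdf10 and 667 CPM in cells with 11 or more UMIs, and Postn at 1161 and 150 CPM.

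The 3 upper limits removed cells of lower F3. Of 4048 fibroblasts with at least 3 Gdf10 UMIs, 827 were over the limit for Fabp4, a fatty acid carrier of the adipocyte lineage, with F3 at 112 CPM, 252 over that for Pi16 at 145 CPM and 128 over that for Tnc, a matrix glycoprotein, at 169 CPM, compared with 475 CPM in the pooled members. A cell could be over more than 1 limit. At the edge of the Fabp4 limit the 29 cells with 9 UMIs had F3 at 406 CPM and the 26 cells with 10 UMIs at 119 CPM. At the edge of the Pi16 limit the values were 328 CPM in 8 cells with 19 UMIs and 283 CPM in 8 cells with 20, and the 49 cells with 1 Tnc UMI had 368 CPM.

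The members were compared with the other 30798 fibroblasts of the same libraries as a description, since they had been picked from these cells by their counts. F3 (chr3:121723537-121735048, mm10, plus strand) had a median over the 12 libraries of 507 CPM in members and 68.8 CPM in other fibroblasts, a median log2 ratio of 2.85 with a range of 2.43 to 3.54. The ratio was 1.91 for Cxcl12 (chr6:117168535-117181367, plus strand) and 2.54 for Tmem176b (chr6:48833818-48841496, minus strand), whose neighbour Tmem176a overlaps it on the other strand and had 2.82. Higher still were Cyp2f2, a cytochrome P450 of the lung, at 3.67, Rgs16, a brake on G protein signals, at 3.45, and Vit, which encodes the matrix protein vitrin, at 3.14. The transcription factor Meox2 had 2.86 and the tetraspanin Tspan11 had 2.71. Cpe, Apoe, Il6, Igfbp3, Inmt, Vtn, Slco2b1, Cpxm2 and Arhgdib had median ratios between 1.85 and 2.13. Of 2571 genes with at least 50 CPM in members, 356 were above the other fibroblasts in all 12 libraries, 71 of them with a median ratio of at least 1, and 566 were below in all 12.

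**Figure D2:**
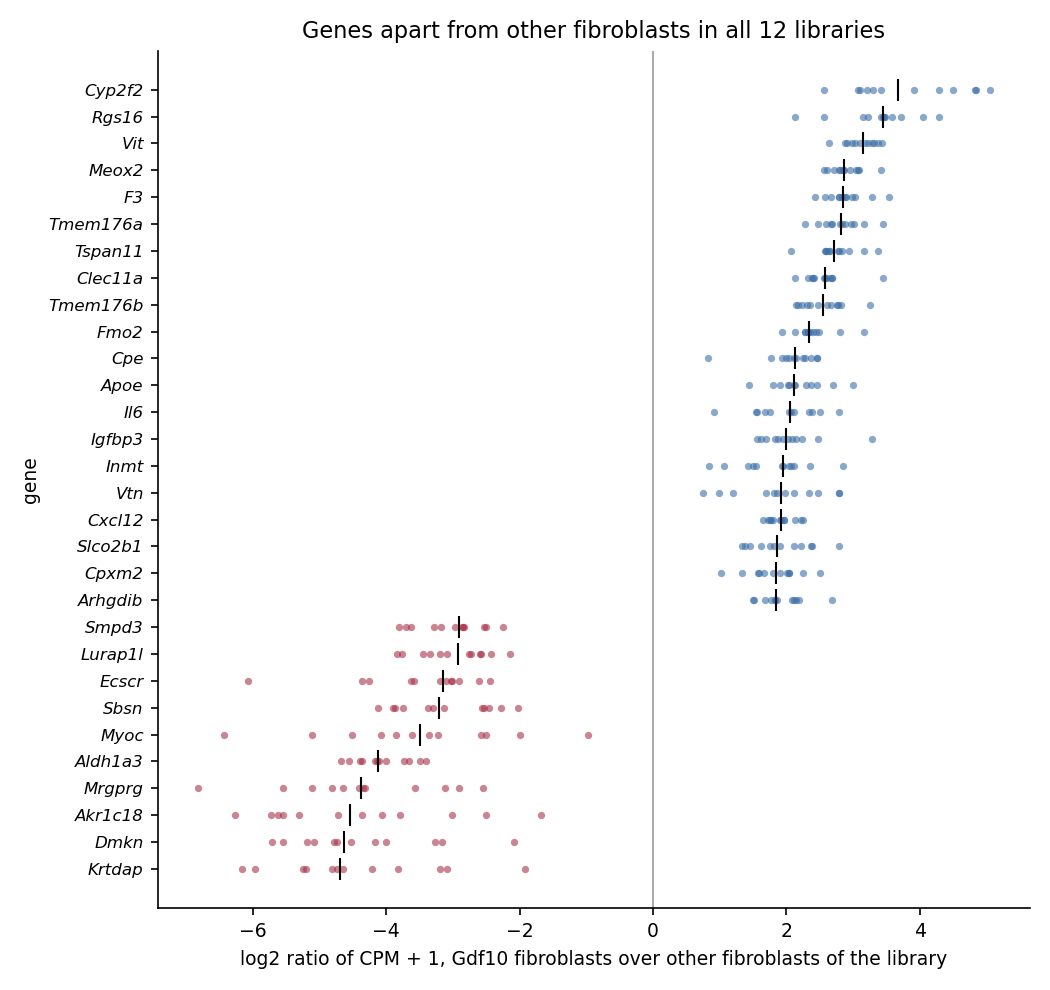
Each point is the log2 ratio of CPM + 1 between Gdf10 fibroblasts and all other fibroblasts of 1 library, with the median over the 12 libraries as a black bar. Rgs16, Vit, Meox2 and F3 lay between 2.13 and 4.29 in each library, and the 10 genes in red lay below 0 in each.

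The genes lowest in members were Krtdap and Dmkn, known from the epidermis, with median log2 ratios of −4.69 and −4.63, followed by Akr1c18, an enzyme that inactivates progesterone, at −4.54, Mrgprg at −4.37 and Aldh1a3, which makes retinoic acid, at −4.12. Myoc, Sbsn, Ecscr, Lurap1l and Smpd3 had ratios between −3.48 and −2.91. Of the 9707 genes with at least 5 CPM in members or in other fibroblasts, 7.66% were above and 14.9% below in all 12 libraries, the shares beside which the list counts stand. The 11 measured genes of Pi16 Dpp4 fibroblasts, chosen against by the limit on Pi16, were below the other fibroblasts in all 12 libraries without exception, among them Dpp4 at −1.94 and Cd248 at −0.62. Of the 19 measured genes of CD142 fibroblasts of fat, other than Gdf10, 16 were above in all 12 libraries and 1, Aspn at −2.26, was below in all. This list had been put together with the label in mind and is no independent evidence for it.

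Of 13 measured complement components and regulators, 10 were above other fibroblasts in all 12 libraries, among them C7 at a log2 ratio of 3.39, C2 at 1.71, C4b at 1.23 and the inhibitor Serping1 at 0.70. Cd55, a membrane inhibitor and a known Pi16 fibroblast gene, was below at −2.06. Beside Pi16-high fibroblasts (at least 20 Pi16 UMIs) alone, 5 of the 13 complement genes were above and 3 below in all 12 libraries. Beside Fabp4-high fibroblasts (at least 10 Fabp4 UMIs), 10 were above and none below. The shares over all genes were not computed beside Pi16-high or Fabp4-high fibroblasts, so that these counts have no background. Of 16 coagulation and fibrinolysis genes, 4 were above and 6 below other fibroblasts in all 12 libraries. Gas6 and Pros1, vitamin K dependent ligands of the TAM receptors, were above at 1.65 and 0.43, whereas the plasminogen activators Plau and Plat were below at −0.97 and −0.78.

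Of the other 10 measured BMP and TGF-β ligands, 1 was above and 5 were below other fibroblasts in all 12 libraries, while the BMP antagonist Chrdl1 was above at a log2 ratio of 1.40. Kitl, the ligand of the receptor Kit, was above at 1.63, whereas Ackr3, a scavenging receptor for Cxcl12, was below at −1.58 and Il34, a ligand of the Csf1 receptor, at −2.89. Of 15 adipogenic regulators, 6 were below, with Pparg, the main adipocyte transcription factor, at −1.05, Plin2 at −1.30 and Cd36 at −2.36, and 1 was above, Nr2f2, a nuclear receptor known to hold back adipogenesis, at 1.33. The comparison cells included the 6160 Fabp4-high fibroblasts that the rule leaves out. Against fibroblasts without Gdf10 that met the other limits, Pparg had −0.93, Plin2 −1.29, Nr2f2 1.15 and Cd36 −0.84, the last with libraries on both sides of 0. Of 21 xenobiotic and oxidative stress genes, 9 were above and 1 below other fibroblasts, and of 20 cholesterol synthesis and uptake genes none was above and 7 were below. The cholesterol counts depended on the comparison cells. Beside Fabp4-high fibroblasts 14 of 21 were below and none above, and beside Pi16-high fibroblasts 3 of 20 were above and 1 below. No share over all genes was computed for these comparison cells, so that the counts are not read against a background.

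Members varied among themselves. With each cell thinned to 5000 UMIs, 1931 genes had a mean of at least 0.25 UMI per cell in all libraries, with a median ratio of variance to mean of 1.13. Thinning made the totals of cells equal but not the means of genes. The ratio was not adjusted for the level of a gene, so that it does not rank genes by variability. The ratio was 44.6 for Gsn, an actin-severing protein, 27.6 for Mgp, an inhibitor of calcification, 26.5 for the chemokine Ccl7, 26.4 for Fos and 8.47 for Cxcl12. Ifit1, an interferon-induced gene, had 14.7, with a range of 7.01 to 37.7 by library.

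The share of fibroblasts that met the rule was 9.67%, 8.50% and 6.42% without hormone (VCD_Vehicle, VCD_Low_PBDE and VCD_High_PBDE), 9.90%, 8.97% and 9.43% with E2, and 9.91%, 6.84% and 9.09% with E2 + P4, in the same order of PBDE. Intact had 9.67%, VCD_Vehicle_NormEnv 9.72% and VCD_E2_ICI 7.01%. The mean was 9.02% ± 1.14 (SD, n = 6) with E2 and 8.20% ± 1.65 (SD, n = 3) without hormone, a difference of 0.828 percentage points (exact permutation test, two-sided, p = 0.333, smallest possible p 0.0238). The libraries were permuted across the PBDE arms, which this test did not adjust for. E2 + P4 against E2 gave −0.821 points (exact permutation p = 0.7), low PBDE −1.73 points (exact permutation p = 0.1) and high PBDE −1.51 points (exact permutation p = 0.1), and 0.1 is the smallest p that 3 against 3 libraries can give. Under the selection rule but without VCD_High_PBDE, the E2 difference was −0.062 points. With Gdf10 counted after thinning each cell to 5000 UMIs and at least 1 Gdf10 UMI required, the E2 difference turned to −0.790 points (exact permutation p = 0.476). The limits on Fabp4, Pi16 and Tnc still used the full counts, so that depth was made equal for Gdf10 alone. The same thinning gave −0.116 points for P4 (exact permutation p = 0.9), −0.887 for low PBDE (exact permutation p = 0.6) and −1.13 for high PBDE (exact permutation p = 0.5). With at least 5 Gdf10 UMIs low PBDE gave −1.19 points (exact permutation p = 0.2) and high PBDE −0.754 (exact permutation p = 0.7).

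Steroid receptors were measured first among the responses to hormone. Esr1 was detected in 36.9% of members and 4.31% of immune cells, and its level was 42.9, 32.3 and 33.3 CPM without hormone, 42.7, 38.1 and 35.5 with E2, and 35.3, 33.5 and 30.6 with E2 + P4, each in the order no, low and high PBDE, which is used for all values below. These levels overlapped (E2 log2 fold change 0.04, standard error 0.10, adjusted p = 0.85, edgeR), and Esr1 was below other fibroblasts in all 12 libraries at a median log2 ratio of −0.71. Fibroblasts without Gdf10 that met the other limits had it in 35.4% of cells and Pi16-high fibroblasts in 71.0%. At 5000 UMIs per cell the shares were 16.0% of members, 18.4% of the cells without Gdf10 and 31.1% of Pi16-high fibroblasts. Nr3c1, the glucocorticoid receptor, was detected in 83.0% of members and had an E2 log2 fold change of −0.10 (adjusted p = 0.55). Esr2 was detected in 1 cell. Pgr, the progesterone receptor and a classical E2 target, was detected in 2.10% of members compared with 0.305% of immune cells. It was at 0.482, 0.439 and 0.512 CPM without hormone, 4.47, 7.93 and 1.41 with E2, and 1.09, 1.45 and 0.437 with E2 + P4 (log2 fold change 2.32, standard error 0.55, adjusted p = 0.035). The 3 levels without hormone rest on at most 2 counts each, so that the fitted fold change depends on the prior count, and the call was lost in 7 of the 13 alternatives in which it was tested, of 17 run. Greb1, another classical target, reached 28.6 CPM in VCD_Low_E2 and 1.75 to 8.44 CPM in the other 5 libraries with E2, against 5.05 to 6.27 without (adjusted p = 0.72).

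More genes passed the test for E2 than for the other agents, in a contrast of more libraries. The contrast of the 6 libraries with E2, with or without P4, against the 3 without, adjusted for PBDE in an additive fit with 4 residual degrees of freedom, called 363 of 11376 tested genes higher (3.19%) and 197 lower (1.73%) at an adjusted p under 0.05 (edgeR). Among the lists, 25 of 39 interferon-induced genes, 6 of 22 collagen chains and 4 of 17 cell cycle genes rose. In the other direction 7 of 23 immediate early genes and 5 of 19 progesterone and glucocorticoid targets fell. Of the called genes 255 raised and 151 lowered had libraries that did not overlap in CPM between the 2 sides, which was so for 10.8% of all tested genes. Without VCD_Low_PBDE the counts were 104 and 39, the lowest of the 9 fits with 1 library left out. Genes named below for the size of their change were chosen among called genes whose libraries did not overlap. For them the lack of overlap is no added support.

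Interferon-induced genes rose as a group in the contrast that averages E2 and E2 + P4, with 25 of 39 tested higher and none lower. Their median log2 fold change was 0.85 compared with −0.02 over all genes, and no count was made for E2 without P4. Immune cell markers leaned the same way, with all 6 tested above 0 at a median of 0.56 for E2 and 0.42 for P4 and none called. The 12 immune markers summed to 33.4 to 39.9 CPM without hormone and 25.3 to 91.6 CPM with E2, and their part in the interferon result was not tested. Irf7, the transcription factor that amplifies the type I interferon response (chr7:141262706-141266481, minus strand), was at 36.6, 21.9 and 17.9 CPM without hormone, 95.6, 79.5 and 72.8 with E2, and 151, 158 and 112 with E2 + P4. All 6 libraries with E2 were above all 3 without, and those with P4 were the highest (log2 fold change for E2 2.13, standard error 0.14, adjusted p = 5e-05). Cxcl10, a chemokine for T cells (chr5:92346638-92348889, minus strand), was at 75.9, 58.4 and 40.0 CPM, then 147, 205 and 152, then 512, 516 and 280. Here too the libraries did not overlap (log2 fold change 2.27, adjusted p = 6e-05). Ifi27l2a went from 623, 285 and 275 CPM to 1300, 1159 and 817 and to 2263, 1658 and 1442 (log2 fold change 1.94). Bst2, which tethers budding viruses, was at 207, 138 and 107 CPM, then 393, 329 and 234, then 528, 393 and 335 (log2 fold change 1.35).

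Isg15, a ubiquitin-like modifier, had a log2 fold change of 1.66. The antiviral RNA-binding Ifit1 had 1.60 with libraries that overlapped, at 197, 97.2 and 87.1 CPM without hormone, 164, 253 and 262 with E2, and 463, 851 and 620 with E2 + P4. Without PBDE it was lower with E2 than without hormone, as were the called genes Oas2 (7.95 and 6.48 CPM) and Parp14 (57.6 and 49.8 CPM). Rsad2, also called, was at 18.8, 7.46 and 24.6 CPM without hormone, 19.7, 24.9 and 23.2 with E2, and 61.4, 76.7 and 70.8 with E2 + P4. Ifit3 had 2.09 and its near-identical neighbour Ifit3b had 1.97, and counts of these 2 genes may have been split between them. Ifi44 had 3.12 from 0 to 1.45 CPM without hormone and is close to the detection limit. Gbp2 and Gbp3, which lyse intracellular vacuoles, had 1.01 and 0.96, and Ccl8, a monocyte chemokine, had 1.00. Ifit2 and Mx1 did not pass the test, at 0.47 and 0.34. The count of raised interferon genes was 12 without VCD_Low_PBDE, with a median log2 fold change of 0.68, and 29 without VCD_Vehicle.

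Windows of RefSeq on GRCm38.p6 from 250 bases before to 50 bases after a transcription start were searched for the interferon-stimulated response element, taken as GAAA, any 2 bases and GAAA again, on both strands with overlaps allowed. It was found in 3.44% of 32851 windows. Of the 25 raised interferon genes, 18 had a window and 11 of these held it, and with so many windows missing a comparison of shares is void. The stretches below are printed because they belong to 5 of the raised interferon genes described above, on the strand of the gene from 5′ to 3′, with the match on either strand in capitals.

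Cxcl10 (chr5:92349073-92349122, minus strand): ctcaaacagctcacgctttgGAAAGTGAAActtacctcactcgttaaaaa

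Ifit3 (chr19:34583353-34583436, plus strand): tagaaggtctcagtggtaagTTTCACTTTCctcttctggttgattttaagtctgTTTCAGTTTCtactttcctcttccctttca

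Isg15 (chr4:156200855-156200916, minus strand): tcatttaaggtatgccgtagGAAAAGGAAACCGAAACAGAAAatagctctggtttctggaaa

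Ifit1 (chr19:34640765-34640833, plus strand): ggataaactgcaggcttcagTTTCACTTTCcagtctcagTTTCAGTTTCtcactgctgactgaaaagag

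Bst2 (chr8:71537567-71537622, minus strand): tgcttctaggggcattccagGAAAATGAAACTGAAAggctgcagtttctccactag

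Ifit3b carried the same 84 bases as Ifit3. Ifit3 and Ifit1 held 2 matches each in capitals that read GAAA on the other strand, and those of Isg15 and Bst2 ran into each other. Irf7 had no match in its window. The estrogen response element, taken as GGTCA, any 3 bases and TGACC, was in 23 of the 32851 windows (0.0700%) and in none of the windows held for the 363 raised genes, of which 263 had one. Of the 8670 tested genes with a window, 1 held it. At this rarity the absence from 263 genes tells nothing about the raised genes.

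P4 added to E2 gave 3 genes higher (0.0264%) and none lower (0.0%) at an adjusted p under 0.05 with edgeR, where 836 genes had an unadjusted p under 0.05 and DESeq2 called 14 higher and 6 lower. Cxcl10 rose by 1.40 on the log2 scale for E2 + P4 against E2 (standard error 0.17, adjusted p = 0.040). Gbp2 was at 166, 169 and 142 CPM with E2 and 277, 314 and 236 with E2 + P4 (log2 fold change 0.85, adjusted p = 0.049), so that its libraries did not overlap. The third gene, Ctla2a, named after its values were seen, rested on 1 library of 259 CPM against at most 20.1 CPM in the E2 libraries. All 39 interferon-induced genes had a fold change above 0 for P4, with a median log2 fold change of 0.50, and 2 of them passed the test. The 3 calls were lost when PBDE was left out of the fit.

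**Figure D3:**
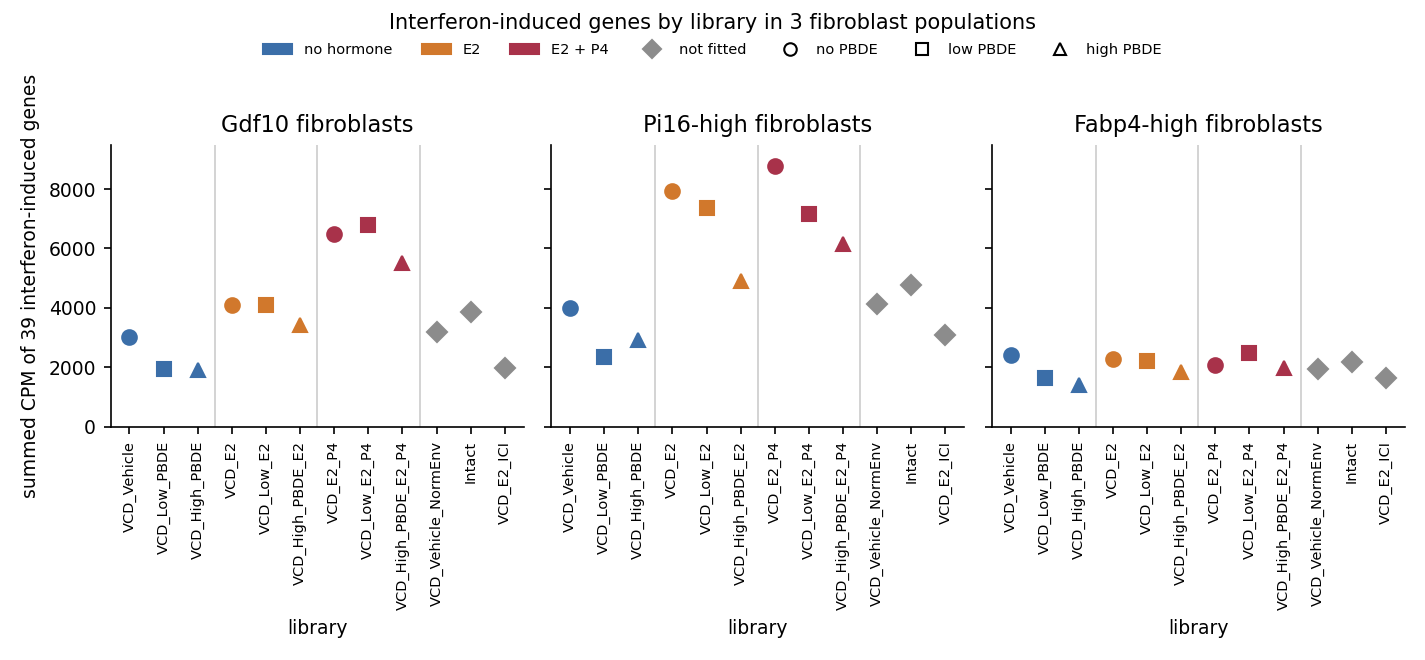
Each point is the summed CPM of 39 interferon-induced genes in the cells of 1 library, for Gdf10 fibroblasts, Pi16-high fibroblasts and Fabp4-high fibroblasts. In Gdf10 fibroblasts the 3 libraries without hormone lay between 1894 and 3010 CPM, those with E2 between 3407 and 4109 and those with E2 + P4 between 5494 and 6786, while in Fabp4-high fibroblasts all 12 libraries lay between 1386 and 2486.

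The E2 effect on interferon genes differed between fibroblast populations. Fabp4-high fibroblasts (at least 10 Fabp4, fewer than 20 Pi16 and fewer than 3 Gdf10 UMIs, 6160 cells) are the adipogenic part of the stroma. Pi16-high fibroblasts (at least 20 Pi16 and fewer than 3 Gdf10 UMIs, 11086 cells) are the progenitor-like part. Neither population had a limit on Tnc, whereas members had no Tnc UMI. Of 12077 genes tested for a difference of the E2 effect between members and Fabp4-high cells, 337 had a higher effect in members (2.79%) and 162 a lower one (1.34%). Of the 39 interferon genes, 24 had a higher effect in members and none a lower one, with a median difference of 0.69. Irf7 went from a mean of 25.5 to 111 CPM in members and from 23.4 to 40.8 CPM in Fabp4-high cells (difference of log2 fold changes 1.41, standard error 0.14). Isg15 went from 36.1 to 116 CPM and from 33.1 to 46.0 CPM (difference 1.26), and Ifi27l2a from 394 to 1440 and from 300 to 476 CPM (difference 1.30). The count of interferon genes with a higher effect ranged from 13 without VCD_Vehicle to 25 without a filter on low counts.

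Against Pi16-high cells, 137 of 12751 genes had a higher E2 effect in members (1.07%) and 176 a lower one (1.38%). Of the 39 interferon genes, 3 had a higher effect in members (Ifi27, Ifi27l2a and Cxcl10), 1 a lower one (Ccl8), and the median difference was −0.18. In Pi16-high cells by themselves 28 of the 39 genes rose with E2 and 1, Ifi27, fell, where 6.13% of all tested genes were called higher and 5.10% lower. In Fabp4-high cells 7 rose and 2 fell, where 8.88% were called higher and 7.14% lower. The summed interferon genes of the Pi16-high cells were at 3996, 2358 and 2900 CPM without hormone, 7941, 7349 and 4901 with E2, and 8788, 7154 and 6159 with E2 + P4, above the members in every library.

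Raised genes outside the interferon list included several that encode matrix proteins. Cthrc1, a secreted protein of wound and tumour stroma (chr15:39076932-39087121, plus strand), was at 7.71, 2.63 and 4.10 CPM without hormone, 42.2, 52.9 and 87.5 with E2, and 39.8, 23.2 and 72.5 with E2 + P4. The rise was 3.30 on the log2 scale (standard error 0.31, adjusted p = 0.00025) and its libraries did not overlap. Spon1, a matrix-bound spondin, was at 47.5, 35.1 and 36.9 CPM, then 204, 225 and 121, then 212, 120 and 164 (log2 fold change 2.18, adjusted p = 0.00025). Plac8, a small cysteine-rich protein, went from 305, 242 and 215 CPM to 609, 648 and 828 and to 997, 723 and 903 (log2 fold change 1.66). Mfap4, an elastic fibre protein, had 1.90.

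Of 22 tested collagen chains, leaving out the 3 of the selection rule, 6 rose and none fell, with a median log2 fold change of 0.41. Col5a2, a chain of the collagen that sets fibril width, was at 769, 525 and 676 CPM without hormone, 965, 877 and 1048 with E2, and 1072, 976 and 1194 with E2 + P4 (log2 fold change 0.69, adjusted p = 0.0025). Col16a1 had 0.81 and Col18a1 had 0.66. P4ha3 and Plod2, which hydroxylate collagen prolines and lysines, had 1.89 and 0.82. Lum, a proteoglycan of collagen fibrils, had 0.67, while its relatives Prelp and Podn fell at −0.55 and −0.48. Of 17 proteases and inhibitors 6 rose, among them Mmp19 at 1.10 and Timp1 at 1.17, and Mmp11 fell at −1.34. Libraries overlapped for Timp1 and Mmp11. Postn had 1.35 with values of 319, 163 and 314 CPM without hormone, 377, 301 and 1124 with E2 and 551, 658 and 1530 with E2 + P4, so that its libraries overlapped. Among pooled members Postn was at 989 CPM in cells with 3 Gdf10 UMIs and 150 CPM in those with 11 or more. The part of this mix of members in its rise was not tested.

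Among the lowered genes, Tgfbi, a matrix protein that binds integrins and collagens (chr13:56609523-56639562, plus strand), was at 458, 685 and 687 CPM without hormone, 235, 220 and 323 with E2, and 245, 270 and 306 with E2 + P4 (log2 fold change −1.14, standard error 0.10, adjusted p = 0.00025). Its libraries did not overlap. Fbln1, a matrix glycoprotein, went from 756, 750 and 728 CPM to 461, 360 and 441 and to 411, 405 and 444 (log2 fold change −0.78, adjusted p = 0.00075). Enpp2, the autotaxin that makes lysophosphatidic acid, was at 206, 174 and 232 CPM, then 91.2, 82.8 and 161, then 72.2, 103 and 102 (log2 fold change −0.98, adjusted p = 0.0028). The basement membrane protein Hmcn2 had −1.56, the calcium-binding matrix protein Smoc2 had −0.94 and Serpinf1, an inhibitor of vessel growth, had −0.46. Smpd3, Lsamp, Sbno2, Cdh13, Spry1 and Clu fell at between −1.32 and −0.79.

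**Figure D4:**
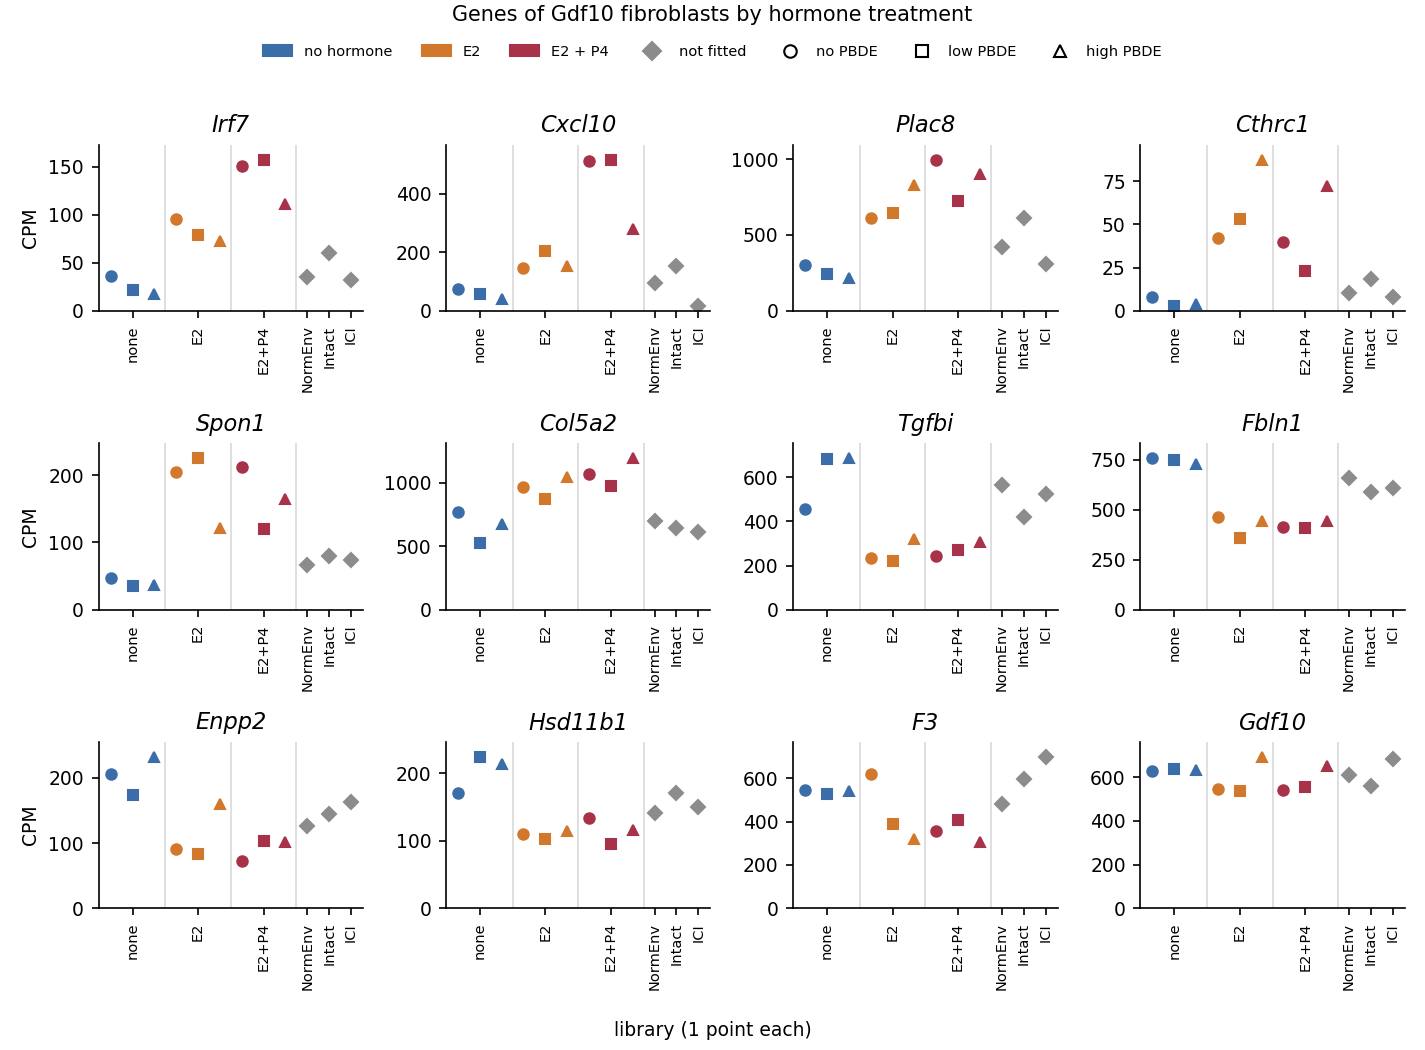
Each point is the CPM of 1 gene in the Gdf10 fibroblasts of 1 library, by hormone arm (colour) and PBDE arm (symbol), with the 3 libraries outside the fit in grey. For Irf7, Plac8, Spon1 and Cthrc1 all 6 libraries with E2 lie above the 3 without hormone, and for Tgfbi, Fbln1 and Hsd11b1 below, whereas F3 overlaps between the arms.

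Hsd11b1, which regenerates active glucocorticoid inside cells, was at 171, 224 and 213 CPM without hormone, 110, 102 and 115 with E2, and 133, 95.7 and 116 with E2 + P4 (log2 fold change −0.81, adjusted p = 0.0039). Of 19 progesterone and glucocorticoid targets none rose and 5 fell, among them Tsc22d3 at −1.15, Cdkn1a at −0.64 and the metallothionein Mt1 at −0.60. Libraries overlapped for Cdkn1a and for Tsc22d3, which was at 51.8, 152 and 149 CPM without hormone and 31.5 to 138.5 with E2. Of 23 dissociation and immediate early genes none rose and 7 fell, among them Jun at −0.61 and Atf3 at −0.55. Their sum was 31332 to 38359 CPM without hormone and 25863 to 30217 with E2, so that genes known to respond to tissue dissociation moved with the hormone arms, and their part in the other changes was not tested. The neighbouring heat shock genes Hspa1a and Hspa1b had −1.03 and −0.90 with libraries that overlapped, and they are near-identical in sequence.

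None of the 3 tested label markers passed the test. F3 was at 548, 530 and 543 CPM without hormone, 619, 390 and 320 with E2, and 357, 406 and 305 with E2 + P4 (log2 fold change −0.42, standard error 0.13, adjusted p = 0.097), and these libraries overlapped. Tmem176b had 0.44 (adjusted p = 0.092) and Cxcl12 −0.18 (adjusted p = 0.49). Of the 19 tested genes of CD142 fibroblasts, Tmem176a rose at 0.71 and 5 fell, the transcription factor Meox1 at −0.80, Mgp at −0.79, Crispld2 at −0.68, and Cst3 and Cygb. These 6 of 19 genes compare with 3.19% raised and 1.73% lowered among all tested genes. Mgp was at 1036, 1493 and 951 CPM without hormone, 846, 532 and 438 with E2, and 980, 638 and 609 with E2 + P4, so that 1 library with E2 reached the range of those without. None of 15 adipogenic regulators passed the test, and the adipocyte gene Plin4 fell at −1.83 from 6.99 to 12.3 CPM without hormone. The summed adipocyte markers were at 7.23 to 12.8 CPM without hormone and 1.63 to 5.59 with E2.

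Signals to other cells were divided. The BMP antagonist Chrdl1 rose at a log2 fold change of 0.44, as did the protease Bmp1 at 0.45 and the co-receptor Eng at 0.46, while Fstl3, which binds activin, fell at −0.72 and the TGF-β target Ctgf at −1.48. Of 23 chemokines and cytokines Cxcl10, Ccl8 and Cxcl16 rose, the last at 0.98, and Cxcl13 and Cxcl14 fell at −0.96 and −0.73. Wnt11, a ligand of the noncanonical Wnt pathway, fell at −0.97 and the Wnt inhibitor Dkk3 rose at 0.55. Igfbp6, which binds insulin-like growth factor, rose at 0.65. Tfpi, the inhibitor of the F3 product, rose at 0.49. For Chrdl1, Ctgf, Ccl8, Cxcl16, Cxcl13, Igfbp6 and Tfpi the libraries with E2 overlapped with those without hormone. Ctgf was at 19.0, 63.2 and 102 CPM without hormone and 12.2 to 23.3 CPM with E2.

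Of 17 cell cycle genes 4 rose, all at low levels. Mki67, a marker of dividing cells, was detected in 39 members (1.34%) and was at 2.17, 0.878 and 0 CPM without hormone, 9.39, 6.83 and 7.38 with E2, and 6.52, 6.70 and 5.68 with E2 + P4 (log2 fold change 2.59, adjusted p = 0.0040). Ube2c, Birc5 and Ccnb2 had 2.43, 2.25 and 2.19. The 4 globin genes also rose, with fold changes of 4.51 to 5.02 on the log2 scale and libraries that overlapped. Red cell markers summed to 9.87 to 19.0 CPM without hormone and 17.2 to 1822 CPM with E2, with 1018 CPM in VCD_High_PBDE_E2 and 1822 CPM in VCD_High_PBDE_E2_P4, and globin transcripts of fibroblasts and of red cells in the suspension cannot be told apart.

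Other E2 effects of the members differed from those of the comparison populations. Cells with Tnc were left out of the members alone, and the part of this unequal limit in the differences was not tested. Fn1, fibronectin, went from 1255 to 2544 CPM in members and from 189 to 1655 CPM in Fabp4-high cells (difference of log2 fold changes −1.83, standard error 0.22). Crispld1 went from 19.1 to 30.6 CPM and from 2.39 to 39.7 CPM (difference −3.22), and Gfra2, a neurotrophic factor receptor, from 7.32 to 16.4 and from 2.36 to 47.0 CPM (difference −3.04). Rspo1, a Wnt agonist that supports mammary stem cells, went from 22.1 to 24.2 CPM in members and from 0.0903 to 4.63 CPM in Fabp4-high cells. The lower of these rests on at most 2 UMIs in each of 3 libraries, so that its fitted difference depends on the prior count and is not given. Matn2, Hmcn1, Cited1, Lrrc15 and Mmd also had lower effects in members, between −2.84 and −1.72, and Ifit3b a higher one of 1.82. Rspo1, Crispld1, Gfra2, Matn2, Hmcn1 and Fn1 passed the test in every alternative run for this comparison.

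Against Pi16-high cells, Mgp went from 1160 to 674 CPM in members and from 45.0 to 146 CPM in Pi16-high cells (difference −2.32, standard error 0.46, adjusted p = 0.025). Itgb7, an integrin chain, went from 159 to 65.2 CPM in Pi16-high cells and was close to the level of 3 counts in members, at 1.14 and 1.78 CPM. Ggt5, a glutathione-cleaving enzyme, went from 134 to 166 CPM and from 18.6 to 83.6 CPM (difference −1.82), and Ctgf and Wisp2, related matricellular proteins, had differences of −1.84 and −1.80. Akr1c18 had a higher effect of 2.89 from a mean of 5.38 CPM in members without hormone. Bmp7, Bmp8a, Pgr and Hbb-bt were also called higher, from means under 1 CPM in members without hormone, where the size of the difference depends on the prior count. Each of these 10 genes lost the call in at least 1 alternative.

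The libraries outside the layout were set beside the E2 genes without a test, as each is 1 library. VCD_E2_ICI also lay on the high PBDE side for 23 of the 30 genes lowered by high PBDE, as given below. It had the lowest sum of member UMIs, 1781544. The part of this likeness in its values for the E2 genes was not tested. In VCD_E2_ICI, Irf7 was at 32.0 CPM with a 95% Poisson interval of 24.2 to 41.5, compared with 95.6 CPM (86.8 to 105) in VCD_E2 and 36.6 CPM (31.0 to 42.9) in VCD_Vehicle. These intervals cover counting error alone. Cxcl10 was at 16.3 CPM (10.9 to 23.4) in VCD_E2_ICI, 147 CPM (136 to 158) in VCD_E2, 75.9 CPM (67.8 to 84.8) in VCD_Vehicle and 154 CPM (143 to 167) in Intact. Isg15 differed from these, at 73.5 CPM (61.5 to 87.3) in VCD_E2_ICI, 69.0 CPM (61.6 to 77.2) in VCD_E2 and 41.2 CPM (35.3 to 47.9) in VCD_Vehicle. It was at 71.6 CPM in Intact and at 117 CPM in VCD_Vehicle_NormEnv, above 4 of the 6 libraries with E2. Tgfbi was at 525 CPM (492 to 560) in VCD_E2_ICI, 235 CPM in VCD_E2 and 420 CPM in Intact. Of the 363 raised genes 272 (74.9%) lay on the no-hormone side of the midpoint between the 2 group means in VCD_E2_ICI, 259 (71.3%) in Intact and 259 in VCD_Vehicle_NormEnv. Of the 197 lowered genes 96 (48.7%) lay on that side in VCD_E2_ICI, 82 (41.6%) in Intact and 93 (47.2%) in VCD_Vehicle_NormEnv.

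Low PBDE gave 2 genes higher (0.0176%) and 1 lower (0.00879%) at an adjusted p under 0.05. Rdh10, a retinol dehydrogenase of the retinoic acid pathway (chr1:16105774-16133734, plus strand), was at 13.7, 16.5 and 25.3 CPM without PBDE (no hormone, E2, E2 + P4) and 33.8, 37.2 and 56.3 with low PBDE, so that the libraries did not overlap (log2 fold change 1.22, standard error 0.16, adjusted p = 0.035). Outside these 6 libraries it was at 41.5 CPM in VCD_E2_ICI, which received no PBDE and lay within the low PBDE range, at 27.9 in Intact, above the 3 libraries without PBDE, and at 20.4 in VCD_Vehicle_NormEnv. Gm12840, an unnamed gene, had 1.17. It was at 66.3, 47.4 and 35.5 CPM without PBDE and 101, 107 and 115 with low PBDE. Outside the fit it was higher than without PBDE in each library, at 82.1 CPM in Intact, 136 in VCD_E2_ICI and 159 in VCD_Vehicle_NormEnv. Ctla2a, named after its values were seen, was lower and rested on the same VCD_E2_P4 library as above. With VCD_Vehicle_NormEnv added to the fit as a library without PBDE no gene was called in either direction, and 440 genes had an unadjusted p under 0.05 in the 9-library fit.

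High PBDE gave 11 genes higher (0.0967%) and 30 lower (0.264%). Of the 24 tested xenobiotic and oxidative stress genes none passed the test in either direction, but Gstp1 and Gstp2, which did, were not on this list. Gm42418 (chr17:39846958-39848788, plus strand), which overlaps a ribosomal RNA repeat, was at 2628, 1551 and 3390 CPM without PBDE (no hormone, E2, E2 + P4) and 819, 640 and 525 with high PBDE. It had a log2 fold change of −1.97, and AY036118 on the other strand of the same locus had −2.61, where reads of the 2 genes may not be separable. Lars2, a mitochondrial leucyl-tRNA synthetase, was at 139, 97.9 and 121 CPM without PBDE and 47.6, 42.9 and 45.0 with high PBDE (log2 fold change −1.44, standard error 0.17, adjusted p = 0.0084). Gstp1, a glutathione transferase that conjugates electrophiles, was at 177, 140 and 103 CPM and 83.5, 57.3 and 86.1 CPM (log2 fold change −0.92, adjusted p = 0.046), and its near-identical neighbour Gstp2 had −0.91.

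The library VCD_E2_ICI, which received no PBDE, moved with these genes. It lay on the high PBDE side of the midpoint for 23 of the 30 lowered genes (76.7%) and 6 of the 11 raised ones (54.5%), compared with 10 and 3 for Intact and 12 and 4 for VCD_Vehicle_NormEnv. Gm42418 was at 777 CPM, AY036118 at 28.6 and Lars2 at 43.2 CPM in VCD_E2_ICI, within or near the range of the high PBDE libraries. VCD_E2_ICI and the 3 high PBDE libraries also had the 4 lowest sums of member UMIs, 1781544 to 2844715. Whether a step shared by these 4 libraries sets these genes was not tested, and no call at an adjusted p under 0.05 remained without VCD_High_PBDE_E2.

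**Figure D5:**
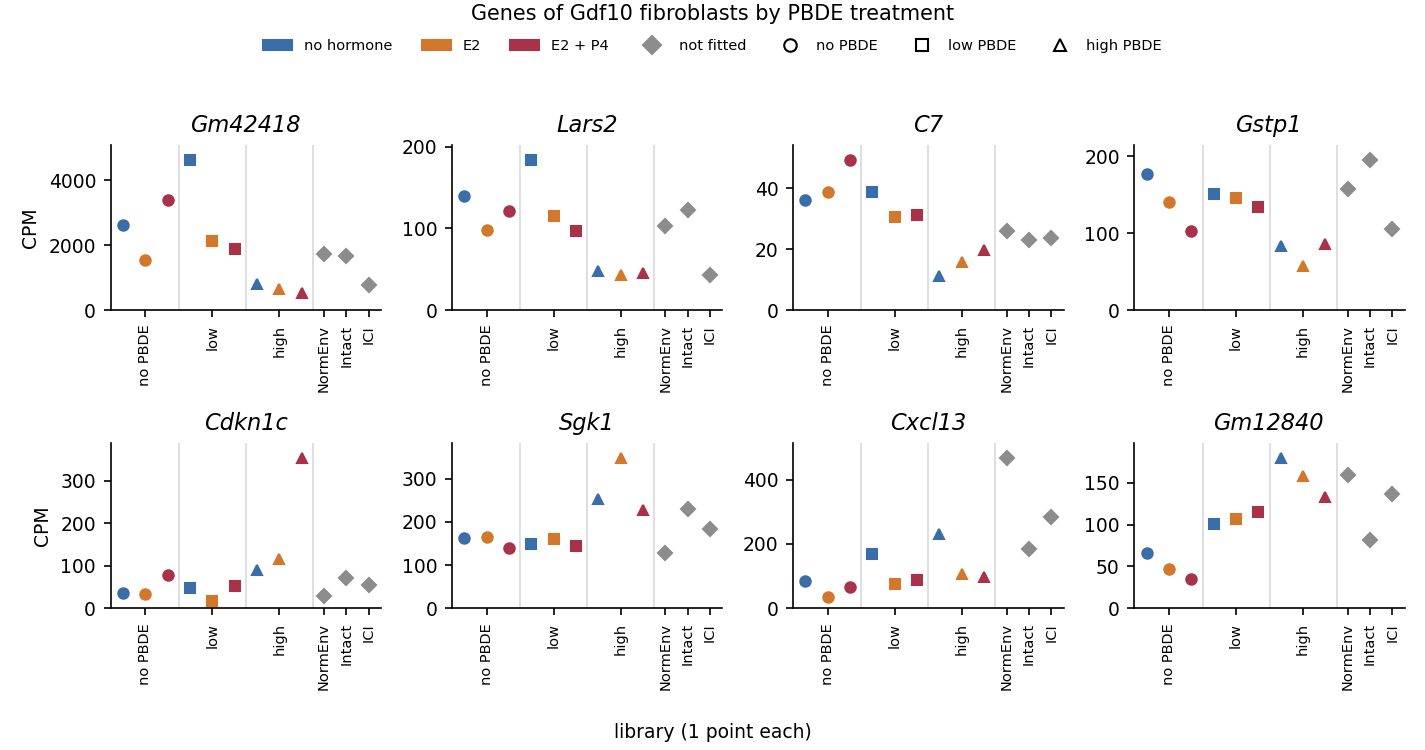
Each point is the CPM of 1 gene in the Gdf10 fibroblasts of 1 library, by PBDE arm (symbol) and hormone arm (colour), with the 3 libraries outside the fit in grey. For Gm42418, Lars2, C7 and Gstp1 the 3 high PBDE libraries lie below the 3 without PBDE, and VCD_E2_ICI was at 43.2 CPM for Lars2.

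Among genes raised by high PBDE, Cdkn1c, an inhibitor of the cell cycle, was at 35.4, 34.0 and 78.4 CPM without PBDE and 89.1, 116 and 354 with high PBDE (log2 fold change 1.79, standard error 0.28, adjusted p = 0.022). Sgk1, a kinase induced by glucocorticoid, was at 163, 165 and 140 CPM and 252, 348 and 228 CPM (log2 fold change 0.76, adjusted p = 0.018). Both were on the list of progesterone and glucocorticoid targets, of which 2 of 19 rose and none fell. Cxcl13, a chemokine for B cells, was at 84.1, 34.2 and 64.8 CPM and 229, 105 and 96.1 CPM (log2 fold change 1.15), and it was at 468 CPM in VCD_Vehicle_NormEnv. Gm12840 had 1.63, Arrdc3 0.80, Irf2bp2 0.74, Adipor1 0.63 and Ptgis, which makes prostacyclin, 0.55. Outside the fit, Gm12840 was at 136 CPM in VCD_E2_ICI and 159 in VCD_Vehicle_NormEnv, within its high PBDE range of 132 to 180, and at 82.1 in Intact. Sgk1 was at 229 CPM in Intact, within its high PBDE range, 183 in VCD_E2_ICI and 128 in VCD_Vehicle_NormEnv. Cdkn1c was below its high PBDE range, at 71.1, 53.9 and 29.2 CPM in Intact, VCD_E2_ICI and VCD_Vehicle_NormEnv.

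Of the genes typical of the population, Clec11a fell with high PBDE, at 160, 145 and 177 CPM without PBDE and 86.6, 93.9 and 141 CPM with it (log2 fold change −0.65, adjusted p = 0.037), and C7, a terminal complement component, had −1.44. Outside the fit, Clec11a was at 95.8 CPM in Intact, within the high PBDE range, at 143 in VCD_E2_ICI and 171 in VCD_Vehicle_NormEnv. C7 was at 23.0 CPM in Intact, 23.6 in VCD_E2_ICI and 25.8 in VCD_Vehicle_NormEnv. These values lay between its fitted libraries with high PBDE (11.3 to 19.7 CPM) and without PBDE (36.2 to 49.4 CPM). F3 had −0.45 (adjusted p = 0.23) and Cxcl12 0.45 (adjusted p = 0.24), the latter with libraries that did not overlap. Of 39 interferon genes 2 fell, Ifi27l2a at −0.89 and Bst2 at −0.83, with a median of −0.19. Nme2, Adamts4, Serpinb1a, Slirp, Gm10076, Ccnd1, Cxcl16 and Timp1 also fell, at between −1.28 and −0.90. In Hbb-bt, a globin, the log2 fold change of 5.50 came with 75.2 and 202 CPM in VCD_High_PBDE_E2 and VCD_High_PBDE_E2_P4 and 0.512 CPM in VCD_High_PBDE.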

How the data were processed

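The authors dissociated the glands with collagenase, passed the cells through a strainer and a dead cell removal step, prepared Chromium v3 libraries and deposited matrices of raw UMI counts, which the submitters' processing notes credit to Cell Ranger 3.1.0 and mm10. Barcodes were filtered as described, and member counts were summed per library. No doublet caller was run, and cells above 40000 UMIs were left out as an alternative. The members, gene lists and tests were chosen with earlier results of these data known. Sums of 9 libraries were tested with edgeR 4.0.16 (R 4.3.3, TMM scaling, filterByExpr, quasi-likelihood test, Benjamini-Hochberg adjustment over all tested genes, threshold 0.05) with hormone and PBDE as additive terms. Each group is 1 library, so p-values measure the spread left by that model, which has 4 residual degrees of freedom and assumes no joint effect of hormone and PBDE. Differences between populations were tested as an interaction with library as a block. The 10 genes of the selection rule were left out of the tests. Shares of cells were compared by exact permutation tests (scipy 1.17.1). The 3 libraries outside the layout received no test. DESeq2 1.42.0, other filters, other member rules, thinning to 5000 UMIs and leaving out each library were alternatives. Positions come from GENCODE M21 on mm10, and promoter windows from RefSeq on GRCm38.p6. The study states NovaSeq sequencing where the labels name HiSeq.

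Genes were named by rule. In each contrast these were the 12 raised and 12 lowered called genes with the largest change, at least 20 CPM and libraries that did not overlap, and up to 4 called genes of each list. Added were 6 steroid receptor genes and targets, the 20 genes highest and 10 lowest beside other fibroblasts at 50 CPM or more in all 12 libraries, and 10 genes for each interaction. Other genes of a list that are named were taken from that list after their values were seen. On simulated counts with 200 genes changed by 1 on the log2 scale, the fit recovered 83.5% for E2, 81.0% for P4, 76.0% for low PBDE and 69.5% for high PBDE. It made 7, 6, 3 and 7 false calls. Apart from the change, each simulated gene had the same mean share in all libraries, with no other treatment or library effect. The percentages hold for that setting alone. Some genes that the rule names are not reported here.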

Additional observations from a re-analysis of the deposited data

Results flagged for a closer look

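A difference between groups was found in 2 results, both on the E2 effect. The E2 effect differed between Gdf10 and Pi16-high fibroblasts in 313 genes (edgeR interaction, adjusted p under 0.05), of which 137 had a higher effect in Gdf10 fibroblasts and 176 a lower one. It differed between Gdf10 and Fabp4-high fibroblasts in 499 genes, 337 with a higher and 162 with a lower effect. The E2 contrast alone called 796 genes higher and 662 lower in Pi16-high fibroblasts and 1084 higher and 872 lower in Fabp4-high fibroblasts, populations with more cells than the Gdf10 fibroblasts. The part of cell number in these counts was not tested.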

How the results depend on the processing

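No paired analysis was possible because the groups hold 1 library each with no replicate numbers to pair by, other than the PBDE term of the fit and the library block of the population comparisons, which the counts of genes below contain unless hormone only is named. The 2 sides of the E2 contrast hold 6 and 3 libraries and those of the other contrasts 3 and 3, and a level under that of 3 counts (0.543 to 1.68 CPM by library) is not resolved. Counts are genes higher, then lower.

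For E2 (363 and 197) DESeq2 gave 237 and 96, at least 5 Gdf10 UMIs 228 and 91, a fit on hormone only 188 and 113, no filter on low counts 614 and 436 and thinning to 5000 UMIs 135 and 73, where fewer counts enter. Leaving out 1 library gave 104 to 341 and 39 to 195. For P4 (3 and 0) DESeq2 gave 14 and 6, hormone only 0 higher, no filter 88 and 44, thinning 10 and 4, and VCD_Vehicle_NormEnv added or no UMI of Krt14, Cd52 and Cspg4 1 lower each, with 0 to 18 and 0 to 4 without 1 library. For low PBDE (2 and 1) DESeq2 gave 7 and 0, VCD_Vehicle_NormEnv added 0 and 0, no filter 24 and 5, thinning 1 higher and at least 5 Gdf10 UMIs 0 lower, with 0 to 1 and 0 to 1 without 1 library. For high PBDE (11 and 30) DESeq2 gave 27 and 52, no filter 130 and 199 and thinning 21 higher, with 0 to 27 and 0 to 41 without 1 library.

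For the E2 effect against Pi16-high cells (137 and 176) DESeq2 gave 69 and 99, no filter 243 higher and thinning 112 lower, with 16 to 312 and 34 to 294 without 1 library. Against Fabp4-high cells (337 and 162) DESeq2 gave 157 and 68 and thinning 156 and 70, with 107 to 341 and 48 to 185. The E2 difference in the share of members was −0.790 points with Gdf10 alone counted after thinning. On the full counts it was −0.062 to 1.57 points without 1 library.

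Of 511 genes called for E2 that could be tested after thinning, 510 had the same sign and 193 passed the test. The thinned counts were drawn from the same UMIs of the same cells, so that the shared sign is no independent evidence. Among the named genes reported here, the values that follow turned in sign. For Esr1, E2 had a log2 fold change of −0.171 after thinning and −0.0444 without VCD_Low_PBDE to 0.125 without VCD_Vehicle. For Greb1, E2 gave −0.127 without VCD_E2_P4, −0.214 without VCD_Low_E2 and −0.343 without VCD_Low_PBDE, up to 0.628 without VCD_Low_E2_P4. For Cxcl12, E2 gave 0.0688 without VCD_Low_PBDE and −0.398 without VCD_High_PBDE. Hbb-bt against Pi16-high cells had −2.42 without VCD_High_PBDE and 8.20 without VCD_Vehicle. The causes were not tested. Of 89 named genes called for E2, 24 were called under every alternative run, as were 6 of 10 against Fabp4-high cells, and 0 of 2 for P4, 0 of 2 for low PBDE, 0 of 27 for high PBDE and 0 of 10 against Pi16-high cells. None of the 89 changed sign.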
